A study of Mus musculus with 54 samples.

Results

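The comparison described here set the mouse suprachiasmatic nucleus (SCN) at Zeitgeber time (ZT) 10, before dusk, against the SCN at ZT22, before dawn. It used the 3 ZT10 and the 3 ZT22 libraries of the study's count table, 6 of 18 libraries in all, and covered every gene with at least 1 read in more than 6 of the 18 libraries, 18941 of 30031 genes listed. Both groups were untreated male C3H/HeH mice, 10 to 12 weeks old, marked WT (wild type) in the column names of the count table and kept in a cycle of 12 hr light and 12 hr dark, so ZT10 fell late in the light phase and ZT22 late in the dark phase, 12 hr apart. SCN tissue was cut out by laser capture from Nissl-stained sections, the tissue of 5 mice was pooled for each library, and about 1 ng of RNA was amplified before sequencing. The amplified libraries were sequenced as 3 technical replicates each, and the 54 samples the study lists are these technical replicates. Each library was therefore a pool, and a p-value here measures the spread between pools.

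The SCN is the pacemaker of the mammalian circadian system. In its neurons CLOCK and BMAL1 (encoded by Arntl) activate the Per and Cry genes through E-boxes, and PER and CRY proteins feed back to repress that activation. Another loop runs through the REV-ERB and ROR receptors, which act on Arntl, and the clock drives neuropeptides such as vasopressin and prokineticin 2 that carry timing signals within and out of the nucleus. In brain, the firing of SCN neurons and many of these transcripts are high in the day and low at night.

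Several properties of the libraries bear on every value that follows. The 3 ZT10 libraries held 21229011, 24025794 and 21148267 counted reads and the 3 ZT22 libraries 27284642, 27568758 and 27991657. Levels are given as CPM, reads per 1000000 reads of the normalized library size. Correlations of log2 CPM across genes between libraries of one timepoint ran from 0.927 to 0.946 at ZT10 and from 0.957 to 0.976 at ZT22. The study describes its libraries as separating by timepoint and by sequencing batch in a principal component analysis. Which libraries were sequenced together is not given in the sources used here, no batch term could be fitted, and time of day and batch cannot be told apart in this contrast. The study's normalized table gave back whole read numbers for 100% of its values, and for ZT22 these equalled the count table for 93.0% to 93.6% of genes with reads. For the 3 ZT10 libraries they were equal for 8.72%, 9.79% and 9.45% of genes only. The 3 ZT6 libraries shared this mismatch, at 9.55%, 10.1% and 12.1%. Every ZT2, ZT14 and ZT18 library lay between 92.7% and 94.2%. Markers of the choroid plexus and ependyma, led by the transthyretin gene Ttr, stood apart in single libraries, with a summed level of 2988, 31.5 and 3391 CPM at ZT10 and 31.3, 295 and 239 CPM at ZT22.

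At the level of all genes, 5001 of 18941 genes (26.4%) differed between ZT10 and ZT22 at an adjusted p below 0.05 (edgeR quasi-likelihood test, 2-sided, Benjamini-Hochberg adjustment over all genes tested). Of these, 2721 (14.4% of genes tested) were higher at ZT10 and 2280 (12%) were lower. The median log2 difference, ZT10 minus ZT22 and positive where ZT10 was higher, was -0.02 over all genes and its absolute value had a median of 1.37 among the genes called. CPM values of the 3 pools at one time did not overlap those of the other for 9384 genes (49.5%), among them 4927 of the 5001 called. With reads recovered from the normalized table, 5564 of 20822 genes (26.7%) were called, and 4209 of the 5001 were called in the same direction, 156 had the opposite sign and 50 were not tested. In this contrast all adjusted p-values below come from the same test unless another is named.

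ZT10 was closer to ZT6, and ZT22 to ZT2, than ZT10 was to ZT22. The other neighbours, ZT14 of ZT10 and ZT18 of ZT22, were not compared in this way. ZT6 and ZT10 also shared the mismatch between counted and recovered reads given above. Over all 18941 genes the absolute log2 difference had a median of 0.39 between ZT10 and ZT6, 0.27 between ZT22 and ZT2 and 0.84 between ZT10 and ZT22. Among the 5001 genes called, which were chosen by the last of these contrasts, the medians were 0.25, 0.20 and 1.37. Of the 2721 genes higher at ZT10, 2689 (98.8%) had means at both ZT6 and ZT10 above both ZT2 and ZT22. Of the 2280 genes lower at ZT10, 2242 (98.3%) had both means below. The choice of these genes by ZT10 against ZT22 fixes part of this order, and the share over all genes tested is not given.

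The difference also moved with base composition and length. Protein-coding genes were ordered by the GC content of their longest transcript and divided into 5 bins of 3021 or 3022 genes. In the most GC-rich bin, above 55.6% GC, the median log2 difference was 0.84, and 31.6% of genes were higher and 3.38% lower at ZT10. In the second bin, between 43.84% and 47.95% GC, the median was -0.33, with 9.70% higher and 19.6% lower. By transcript length the median fell from 0.41 in the bin of the shortest transcripts to -0.37 in the longest. Between ZT10 and ZT6 the medians by bin of GC content lay between -0.04 and 0.12, and between ZT22 and ZT2 between -0.06 and 0.19. When each library's trend with GC content and length was removed, an alternative chosen after the data were seen, 4206 genes were called and 3255 of the 5001 kept their call and direction, 1887 of them higher and 1368 lower at ZT10. Another 158 of the 5001 had the opposite sign, and 30 of these were called in that opposite direction. The part of amplification or sequencing in this trend was not tested.

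**Figure D1:**
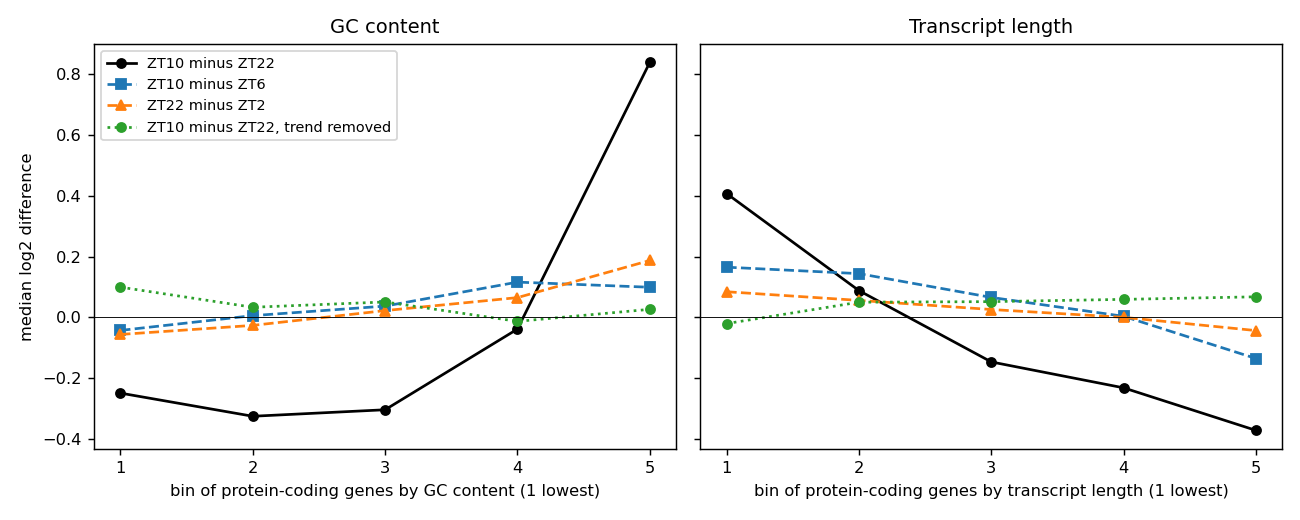
Median log2 difference (vertical axis) of protein-coding genes by bin of transcript GC content (5 bins) (left) and transcript length (right), for ZT10 minus ZT22, ZT10 minus ZT6, ZT22 minus ZT2, and ZT10 minus ZT22 with the trend removed. ZT10 minus ZT22 reached 0.84 in the most GC-rich bin, while the other 3 lines stayed between -0.14 and 0.19.

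Among the repressor limb of the clock, which includes the Per and Cry genes and the kinases and F-box proteins that set PER and CRY stability, 6 of 11 genes were higher at ZT10, against 14.4% of all genes, and the median log2 difference was 0.91. None was lower by edgeR, at an unadjusted p below 0.05 or by DESeq2. Per2, a core repressor, measured 96.7, 105 and 116 CPM at ZT10 and 6.88, 14.9 and 10.8 CPM at ZT22. Every ZT10 library stood above every ZT22 library, and the log2 difference was 3.29 ± 0.31 (SE, adjusted p = 3.4e-07). Its partner Per1 measured 33.5, 31.6 and 44.6 CPM at ZT10 and 8.99, 8.78 and 9.17 CPM at ZT22, again without overlap, and differed by 2.03 ± 0.30 (SE, adjusted p = 5.3e-05). Per3 measured 55.5, 38.4 and 67.9 CPM at ZT10 and 19.1, 18.3 and 16.7 CPM at ZT22. The pools of the different times were again apart, and its log2 difference was 1.58 ± 0.37 (SE, adjusted p = 0.0033). Cry1, which encodes the strongest of the repressors, measured 63.3, 54.4 and 52.4 CPM at ZT10 and 24.3, 21 and 28.1 CPM at ZT22, a difference of 1.21 ± 0.26 (SE, adjusted p = 0.0016) with all ZT10 pools above all ZT22 pools.

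Fbxl21, an F-box protein that acts on CRY proteins, differed by 1.54 ± 0.36 (SE, adjusted p = 0.0032), and Csnk1e, the kinase CK1 epsilon that phosphorylates PER, by 0.70 ± 0.22 (SE, adjusted p = 0.023). With the GC and length trend removed Csnk1e was at 0.42 (adjusted p = 0.29), while Per2 was at 3.46 (adjusted p = 1.4e-06) and Per1 at 1.30 (adjusted p = 0.0078). The remaining 5 genes were not called. Cry2 measured 56.1, 36 and 65.9 CPM at ZT10 and 43.2, 57.2 and 54 CPM at ZT22, with overlapping groups and a log2 difference of 0.03 (adjusted p = 0.96). Csnk1d was at -0.26 (adjusted p = 0.58), Btrc at -0.58 (adjusted p = 0.15) and Ciart, an E-box repressor, at 0.91 (adjusted p = 0.19). Cry2 and Csnk1d overlapped between the times, and Btrc and Ciart did not.

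**Figure D2:**
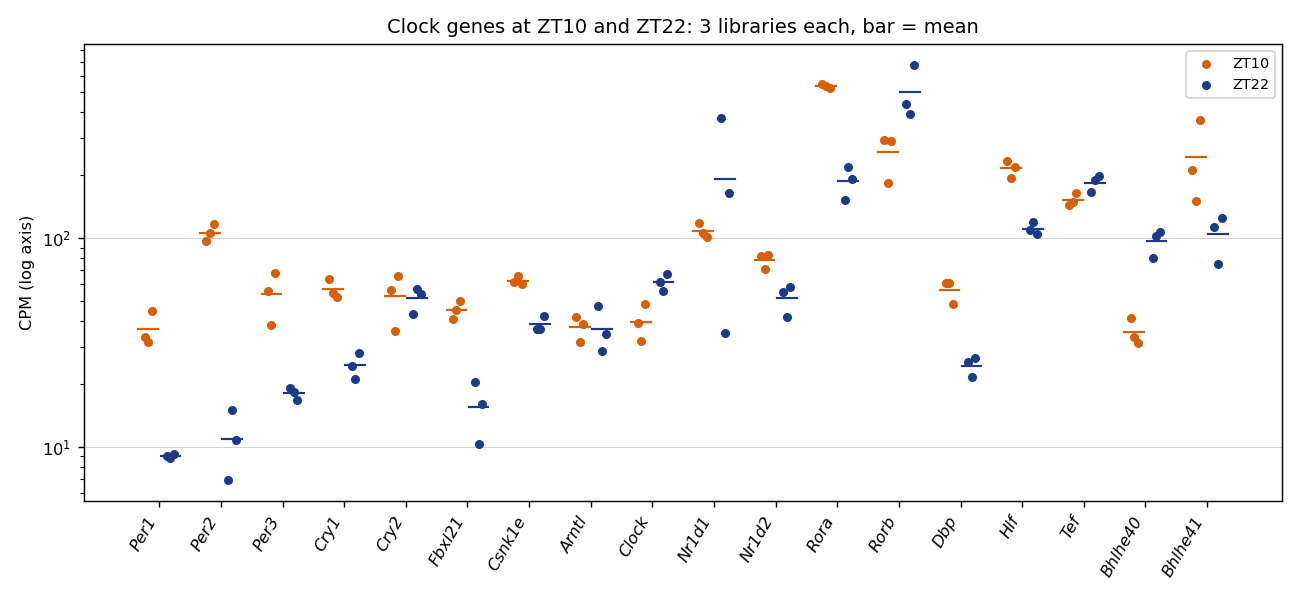
CPM on a log axis for 18 clock genes; each point is 1 library (3 at ZT10 in orange, 3 at ZT22 in blue) and each bar the mean of 3. Per2 lay between 96.7 and 116 CPM at ZT10 and between 6.88 and 14.9 CPM at ZT22, whereas Arntl and Cry2 overlapped.

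Promoters were read for the elements named in clock biology, through which CLOCK and BMAL1 (the E-box CACGTG) and DBP (the D-box TTATGNAA) act. The windows searched, from RefSeq on build GRCm38.p6, run from 250 bases before to 50 bases after a gene's start. The stretch before the start is shown for 7 genes whose window held CACGTG, so that the element can be seen in its surroundings: the repressors Per1 and Cry1, the DEC factor Bhlhe41 and the peptide genes Avp and Prok2, all higher at ZT10, the repressor Ciart, which was not called, and the receptor gene Cnr1, which was lower. They lie at chr11:69098699-69098948 on the plus strand for Per1, chr10:85185055-85185304 on the minus strand for Cry1, chr6:145865421-145865670 on the minus strand for Bhlhe41, chr2:130582589-130582838 on the minus strand for Avp, chr6:99726393-99726642 on the minus strand for Prok2, chr3:95882229-95882478 on the minus strand for Ciart and chr4:33924394-33924643 on the plus strand for Cnr1. Capitals mark the E-box and, in Per1, also the D-box.
Per1: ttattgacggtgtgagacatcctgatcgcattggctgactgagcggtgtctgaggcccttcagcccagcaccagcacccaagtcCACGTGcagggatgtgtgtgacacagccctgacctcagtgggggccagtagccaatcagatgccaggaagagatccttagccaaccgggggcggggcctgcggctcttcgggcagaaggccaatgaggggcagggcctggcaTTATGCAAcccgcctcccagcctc
Cry1: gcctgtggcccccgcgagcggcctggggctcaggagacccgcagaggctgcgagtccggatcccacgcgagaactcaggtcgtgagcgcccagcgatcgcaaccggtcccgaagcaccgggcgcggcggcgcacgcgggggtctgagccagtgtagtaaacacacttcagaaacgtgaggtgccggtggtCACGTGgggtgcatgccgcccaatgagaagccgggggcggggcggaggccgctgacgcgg
Bhlhe41: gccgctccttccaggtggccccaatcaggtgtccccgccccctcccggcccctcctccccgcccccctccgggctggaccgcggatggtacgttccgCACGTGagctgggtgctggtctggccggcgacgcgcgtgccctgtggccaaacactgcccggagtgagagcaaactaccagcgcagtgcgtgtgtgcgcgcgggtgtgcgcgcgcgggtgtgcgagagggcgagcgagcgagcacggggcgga
Avp: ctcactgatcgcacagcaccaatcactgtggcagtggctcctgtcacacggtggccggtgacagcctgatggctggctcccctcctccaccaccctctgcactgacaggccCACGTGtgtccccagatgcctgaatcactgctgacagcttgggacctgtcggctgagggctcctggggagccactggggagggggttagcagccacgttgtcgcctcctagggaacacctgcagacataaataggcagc
Prok2: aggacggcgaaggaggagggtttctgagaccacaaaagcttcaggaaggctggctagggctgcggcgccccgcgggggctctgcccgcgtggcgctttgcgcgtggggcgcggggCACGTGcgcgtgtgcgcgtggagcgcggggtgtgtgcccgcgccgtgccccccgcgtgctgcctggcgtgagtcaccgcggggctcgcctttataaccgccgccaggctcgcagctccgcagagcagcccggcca
Ciart: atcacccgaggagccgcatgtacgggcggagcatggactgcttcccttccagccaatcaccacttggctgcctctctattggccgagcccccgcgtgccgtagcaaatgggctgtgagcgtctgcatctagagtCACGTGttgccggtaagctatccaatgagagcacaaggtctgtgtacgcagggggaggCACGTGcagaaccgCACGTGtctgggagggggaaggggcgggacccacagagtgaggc
Cnr1: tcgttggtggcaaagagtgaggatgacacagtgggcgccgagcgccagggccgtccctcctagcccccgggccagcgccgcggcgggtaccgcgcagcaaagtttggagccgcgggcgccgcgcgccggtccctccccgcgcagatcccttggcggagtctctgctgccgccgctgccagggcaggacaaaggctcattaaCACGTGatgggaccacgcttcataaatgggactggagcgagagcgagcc

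The E-box began 166 bases before the start in Per1, 60 in Cry1, 153 in Bhlhe41, 139 in Avp, 135 in Prok2 and 49 in Cnr1, and the Per1 D-box 24 bases before it. Of the 11 repressor genes, 7 had a window in the RefSeq table, and 3 of these held CACGTG on either strand, of which Ciart, with 3 copies, was not called. Of the clock, peptide and receptor genes with a window, CACGTG was in 6 of 14 that were higher, 1 of 9 that were lower and 6 of 34 not called. The genes with it that are not shown were Nmu, which was higher, and Tef, Cck, Tac1, Mtnr1a and Npy5r, which were not called. CACGTG was in 10.7% of windows of genes higher at ZT10, 9.17% of those of genes lower, 8.69% of those of genes not called and 7.15% of all 32851 windows. The palindromic cAMP response element TGACGTCA was in 3.75%, 2.5%, 2.47% and 1.79% in the same order. The shorter TGACG, which the whole element contains, was in 34.2%, 28.5%, 26.2% and 20.8%. The D-box was in 2.28%, 1.92%, 2.21% and 3.38%, and the ROR element AGGTCA in 10.8%, 12.3%, 13.9% and 16.3%. All windows include those of genes that were not tested. The windows of higher genes were richer in GC, with a median of 62%, than those of lower genes at 58.7% and all windows at 52.7%, and these shares were not matched on base composition.

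None of the 4 activator genes was called by edgeR, while 1, Clock, was lower at an unadjusted p below 0.05 and by DESeq2. Arntl, which encodes BMAL1, measured 42, 31.8 and 38.9 CPM at ZT10 and 47, 28.6 and 34.8 CPM at ZT22, and the groups overlapped, with a log2 difference of 0.03 (adjusted p = 0.95). Clock measured 39, 32 and 48.2 CPM at ZT10 and 61.4, 55.4 and 67.2 CPM at ZT22. All ZT10 pools of Clock lay below all ZT22 pools, with a log2 difference of -0.63 (adjusted p = 0.069) from the count table and -0.71 (adjusted p = 0.045) from recovered reads. Its difference with the trend removed was -0.10 (adjusted p = 0.81). Npas2, which can stand in for CLOCK, was at -0.02 (adjusted p = 0.98) and Arntl2 at -1.39 (adjusted p = 0.16).

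In the REV-ERB and ROR loop 1 of 5 genes (20%) was higher, 1 (20%) lower and 3 were not called, against 14.4% and 12% of all genes. Rora, an activator of Arntl, measured 547, 536 and 522 CPM at ZT10 and 153, 218 and 192 CPM at ZT22, a difference of 1.51 ± 0.18 (SE, adjusted p = 6.2e-06). Its paralog Rorb went the other way, with 295, 184 and 293 CPM at ZT10 and 439, 392 and 676 CPM at ZT22 and a difference of -0.97 ± 0.22 (SE, adjusted p = 0.003). Both were free of overlap. With the GC and length trend removed Rorb was at -0.43 (adjusted p = 0.1) and Rora at 2.10 (adjusted p = 2.2e-07). Nr1d1, which encodes REV-ERB alpha, measured 118, 106 and 101 CPM at ZT10 and 376, 35 and 164 CPM at ZT22. The ZT22 pools of Nr1d1 spread on both sides of ZT10, and the difference was -0.82 (adjusted p = 0.42). Nr1d2 was at 0.61 (adjusted p = 0.17) and, with the trend removed, at 1.03 (adjusted p = 0.044).

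Of the 6 D-box and DEC factors, 3 were higher at ZT10, 1 was lower and 2 were not called, which is 50% higher and 16.7% lower against 14.4% and 12% of all genes. Dbp, a D-box activator and direct clock output, measured 60.6, 60.8 and 48.1 CPM at ZT10 and 25.3, 21.6 and 26.4 CPM at ZT22. The pools did not overlap and the difference was 1.21 ± 0.24 (SE, adjusted p = 0.0011), but with the GC and length trend removed it turned to -0.30 (adjusted p = 0.46); the longest Dbp transcript is 61.6% GC. Hlf, of the same family, measured 233, 193 and 219.7 CPM at ZT10 and 109, 119 and 105 CPM at ZT22 and differed by 0.96 ± 0.14 (SE, adjusted p = 5.1e-05). The DEC repressors diverged: Bhlhe41 (DEC2) measured 211, 150.2 and 369 CPM at ZT10 and 113, 74.8 and 125 CPM at ZT22, a difference of 1.23 ± 0.27 (SE, adjusted p = 0.0022). Bhlhe40 (DEC1) measured 41.2, 33.6 and 31.4 CPM at ZT10 and 80.2, 102 and 106 CPM at ZT22, a difference of -1.44 ± 0.26 (SE, adjusted p = 0.00033). In both, every pool of one time lay beyond every pool of the other. Tef was at -0.28 (adjusted p = 0.16) and the D-box repressor Nfil3 at -0.96 (adjusted p = 0.21).

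As given above, ZT6 lay close to ZT10 and ZT2 close to ZT22. A difference common to both members of such a pair, from time of day or from batch, cancels inside it. A further test therefore asked whether ZT10 differed from ZT6 or ZT22 from ZT2, with both differences tested jointly. It called 15 of 18941 genes (0.0792%), and 10 of the 15 also differed between ZT10 and ZT22. The count was 8 without ZT22 replicate B, 9 without ZT10 replicate C and between 10 and 14 without any other of the 6 libraries. Because the count is small, all 15 are named, most after their values were seen. Prok2 fell by 1.55 on the log2 scale from ZT6 to ZT10 and its log2 difference between ZT22 and ZT2 was -3.93 (joint adjusted p = 0.0017). Bhlhe41, Sik1, a kinase that restrains CREB coactivators, the G-protein regulator Rgs16, Rasl11b and Fosl2 had joint adjusted p-values of 0.0017, 0.0017, 0.0017, 0.0017 and 0.0021. All 6 were lower at ZT10 than at ZT6 and lower at ZT22 than at ZT2.

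Between ZT10 and ZT22 themselves, Sik1 measured 27.5, 17.9 and 20.1 CPM at ZT10 and 10.1, 8.3 and 11.3 CPM at ZT22, a log2 difference of 1.14 ± 0.29 (SE, adjusted p = 0.0063). Rgs16 measured 140.4, 104 and 143 CPM at ZT10 and 82.7, 76.5 and 81 CPM at ZT22, a difference of 0.69 ± 0.21 (SE, adjusted p = 0.022). Rasl11b measured 80.5, 117 and 68.1 CPM at ZT10 and 32.1, 51.4 and 45 CPM at ZT22 and Fosl2, a partner of JUN proteins, 9.61, 6.21 and 9.91 CPM at ZT10 and 16.3, 25.2 and 30.3 CPM at ZT22. Sik1, Rgs16 and Rasl11b were higher at ZT10 and Fosl2 was lower, and none of them overlapped.

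Dbp, Rorb, the translation inhibitor Pdcd4, Fndc9, the calcineurin regulator Rcan1 and the phosphatase Ptp4a1 also passed the joint test, with adjusted p-values of 0.023, 0.026, 0.016, 0.026, 0.03 and 0.048. Pdcd4 rose at ZT10 against ZT22 by 1.44 ± 0.23 (SE, adjusted p = 0.00011), and Fndc9 by 0.63 ± 0.22 (SE, adjusted p = 0.04). Rcan1 was at 0.09 (adjusted p = 0.84) and Ptp4a1 at 0.66 (adjusted p = 0.079) in that contrast. The last 3 genes, AU021092, Htr1a and Dapp1, had means of 0.016, 0.032 and 0 CPM at ZT6 and of 4.62, 2.66 and 1.5 CPM at ZT10. Their differences between ZT10 and ZT22 were -0.64 (adjusted p = 0.51), -1.10 (adjusted p = 0.22) and -1.59 (adjusted p = 0.1).

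**Figure D3:**
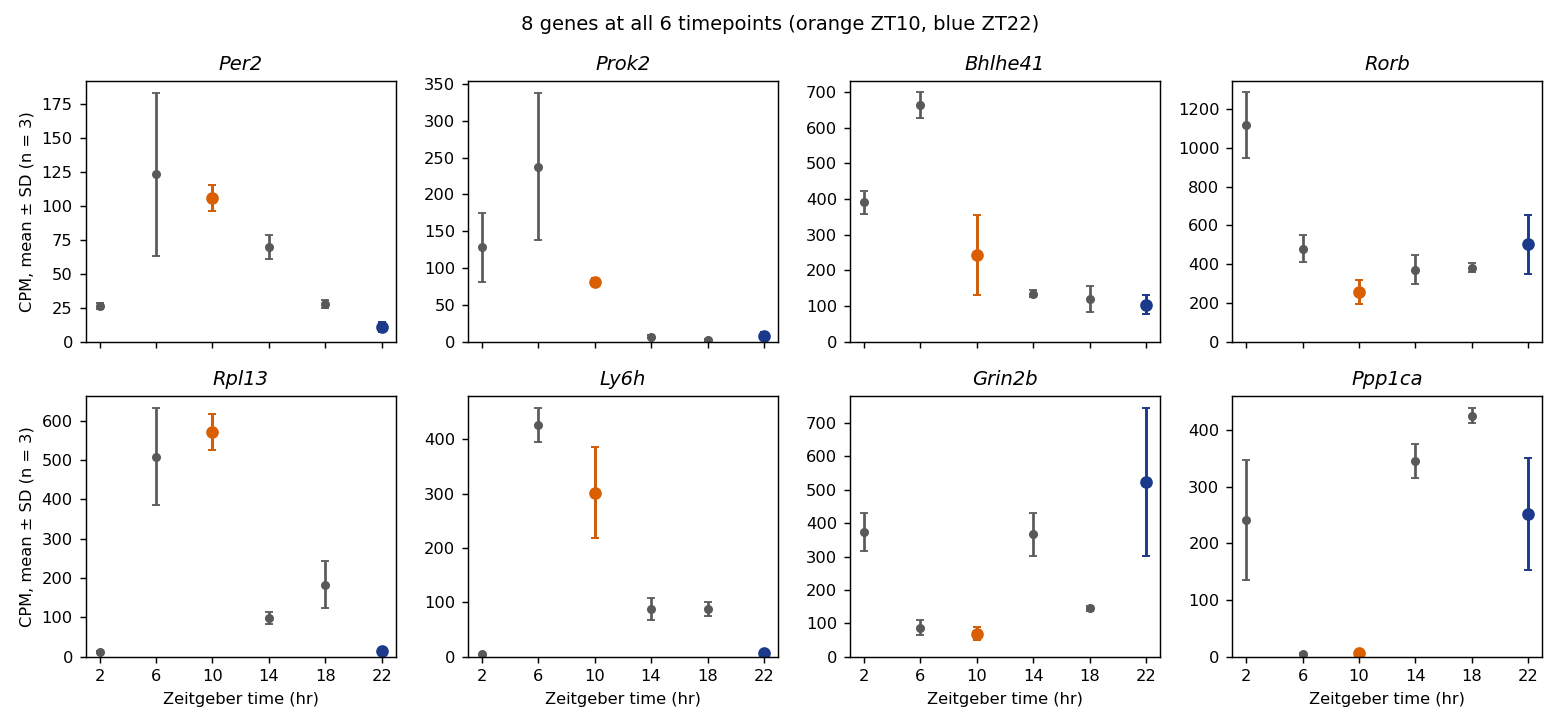
Mean CPM ± SD (n = 3 libraries) of 8 genes at 6 timepoints, with ZT10 in orange and ZT22 in blue. Prok2 and Bhlhe41 passed the joint test of ZT10 against ZT6 and ZT22 against ZT2, whereas Rpl13, Ly6h, Grin2b and Ppp1ca did not.

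Among SCN peptide genes more were higher before dusk than lower. Of 20 peptide genes tested, of 22 listed, 7 (35%, against 14.4% of all genes) were higher at ZT10, 1 (5%, against 12%) was lower and 12 were not called, with a median of 0.98. Avp, which encodes vasopressin of the dorsomedial SCN, measured 276, 278 and 410.4 CPM at ZT10 and 8.81, 3.12 and 4.19 CPM at ZT22. There was no overlap, and the difference was 5.90 ± 0.37 (SE, adjusted p = 2e-09). Avp was read from 5694, 6414 and 8695 reads at ZT10 and 243, 85 and 117 at ZT22, while the normalized table gave back 3586, 4586 and 4922 reads at ZT10. From those reads the difference was 5.47 (adjusted p = 1.3e-09), and with the GC and length trend removed it was 3.37 (adjusted p = 7.9e-08). Avp transcripts are 65.7% GC.

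Prok2, the output signal prokineticin 2, measured 79.3, 75.9 and 87.1 CPM at ZT10 and 3.08, 8.56 and 13.6 CPM at ZT22, without overlap, and differed by 3.26 ± 0.48 (SE, adjusted p = 6.2e-05). Grp, the gastrin-releasing peptide of the retinorecipient core, measured 294, 350.1 and 239 CPM at ZT10 and 55.6, 31.8 and 30.1 CPM at ZT22, a difference of 2.91 ± 0.29 (SE, adjusted p = 6.7e-07). Nms, neuromedin S, measured 411, 497 and 359 CPM at ZT10 and 228, 244 and 189 CPM at ZT22, a difference of 0.94 ± 0.19 (SE, adjusted p = 0.0012). All 3 kept their call with the trend removed. Vgf, a neurosecretory precursor, measured 172, 148 and 143 CPM at ZT10 and 18.2, 29.9 and 20.2 CPM at ZT22. Its difference was 2.76 ± 0.27 (SE, adjusted p = 5.4e-07), and 1.00 (adjusted p = 0.01) with the trend removed. Adcyap1, which encodes PACAP, measured 18, 11.7 and 12.8 CPM at ZT10 and 1.2, 1.62 and 2.15 CPM at ZT22 and Nmu, neuromedin U, 9.37, 12.6 and 7.74 CPM at ZT10 and 0.507, 0.0367 and 1.18 CPM at ZT22. They differed by 3.09 ± 0.69 (SE, adjusted p = 0.0023) and 4.09 ± 1.06 (SE, adjusted p = 0.0072), from low levels and without overlap.

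Scg2, secretogranin II of dense-core vesicles, was the peptide precursor that was lower, with 4318, 5014 and 3286 CPM at ZT10 and 6955, 6417 and 6513 CPM at ZT22 and a difference of -0.66 ± 0.19 (SE, adjusted p = 0.013). From recovered reads it was at -0.50 (adjusted p = 0.051), and with the trend removed at -0.41 (adjusted p = 0.14), where 8 peptide genes were called, all of them higher. Vip, which marks the SCN core and synchronizes its neurons, measured 2693, 2879.7 and 2283 CPM at ZT10 and 1884, 1566 and 1504 CPM at ZT22. All ZT10 pools of Vip exceeded all ZT22 pools, and its difference was 0.67 (adjusted p = 0.051) from the count table and 0.78 (adjusted p = 0.023) from recovered reads. Vip was at 0.86 (adjusted p = 0.033) with the trend removed. Penk was at 1.29 (adjusted p = 0.1), Tac1 at -2.30 (adjusted p = 0.09) and Sst at 1.06 (adjusted p = 0.36). Tac1 was called lower from recovered reads, at -2.75 (adjusted p = 0.041), but not with the trend removed, at -2.24 (adjusted p = 0.1). The other 8 uncalled peptide genes, Nts, Cartpt, Gal, Tac2, Pdyn, Cort, Npy and Cck, had log2 differences between -1.67 and 3.27.

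Every receptor gene called, of those for these and other SCN inputs, was lower before dusk. Of 22 receptor genes tested, of 24 listed, none was higher at ZT10, 7 were lower, against 12% of all genes, and 15 were not called, with a median of -0.75. At an unadjusted p below 0.05, and by DESeq2, 9 were lower and again none was higher. Without ZT22 replicate A the median was -0.39. Npy2r, a receptor of neuropeptide Y, measured 0.146, 0.0868 and 0.944 CPM at ZT10 and 6.27, 27.1 and 24.9 CPM at ZT22. It was near absent at ZT10, and the difference was -5.62 ± 0.93 (SE, adjusted p = 0.00017). Cnr1, the cannabinoid receptor CB1, measured 24.8, 25.4 and 32.7 CPM at ZT10 and 121, 216 and 246 CPM at ZT22, a difference of -2.81 ± 0.31 (SE, adjusted p = 2.9e-06). Oprl1, the nociceptin receptor, measured 80.0, 65.9 and 61.4 CPM at ZT10 and 244, 177 and 219 CPM at ZT22, a difference of -1.62 ± 0.21 (SE, adjusted p = 1.5e-05). In all 3 the groups were apart, and the calls held with the trend removed.

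Prokr2, the receptor of PROK2, measured 169, 139.7 and 153 CPM at ZT10 and 347, 234 and 331 CPM at ZT22, a difference of -0.98 ± 0.19 (SE, adjusted p = 0.00073) opposite in sign to that of its ligand. Adcyap1r1, the PACAP receptor, measured 88.1, 99 and 117 CPM at ZT10 and 204, 205 and 232 CPM at ZT22, a difference of -1.08 ± 0.21 (SE, adjusted p = 0.0007), also opposite to its ligand. Npy1r differed by -0.94 ± 0.31 (SE, adjusted p = 0.032) and Vipr2, the VIP receptor of the SCN, by -0.57 ± 0.20 (SE, adjusted p = 0.044). With the trend removed Prokr2 was at -0.55 (adjusted p = 0.031), Adcyap1r1 at -0.64 (adjusted p = 0.0082), Npy1r at -0.63 (adjusted p = 0.14) and Vipr2 at -0.14 (adjusted p = 0.74); from recovered reads Vipr2 was at -0.47 (adjusted p = 0.091). Uncalled receptors included the vasopressin receptor Avpr1a at -0.16 (adjusted p = 0.83), the endothelin receptor Ednrb at 0.18 (adjusted p = 0.47), but at 0.60 (adjusted p = 0.029) with the trend removed, and the GRP receptor Grpr at -0.92 (adjusted p = 0.14). The other 12 uncalled receptors ran from -4.29 to 0.90. Among them Htr1b, with 1, 0 and 0 counted reads at ZT10, was called lower from recovered reads (adjusted p = 0.04). Those reads also gave 7 receptor genes lower, with Htr1b in place of Vipr2. Among all 22 receptor genes 1 was higher and 5 were lower with the trend removed, and the median was -0.35.

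**Figure D4:**
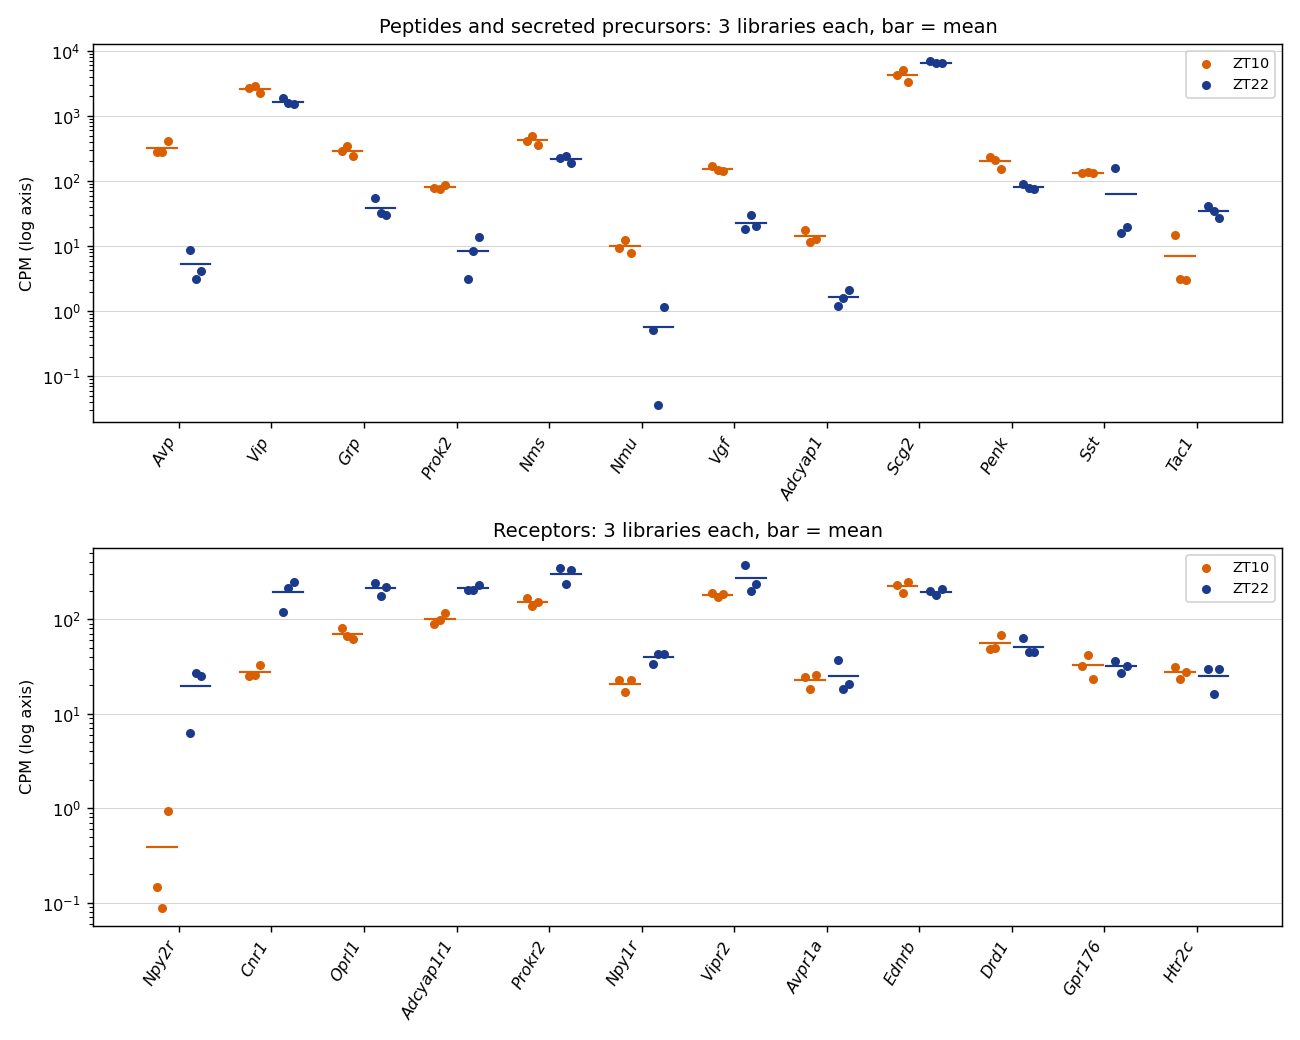
CPM on a log axis for 12 peptide genes (top) and 12 receptor genes (bottom), 1 point per library (ZT10 orange, ZT22 blue) and bars at the mean of 3. Avp lay between 276 and 410.4 CPM at ZT10 and between 3.12 and 8.81 CPM at ZT22, and Npy2r between 0.0868 and 0.944 CPM at ZT10 and between 6.27 and 27.1 CPM at ZT22.

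Transcription factors that specify the SCN were higher at ZT10 in 6 of 13 genes tested and lower in none, a share of 46.2% against 14.4% of all genes, with a median of 1.65. At an unadjusted p below 0.05 there were 7 higher and 1 lower, and by DESeq2 6 and 0. Six3 measured 261, 252 and 263 CPM at ZT10 and 86.7, 78.3 and 73.8 CPM at ZT22, a difference of 1.70 ± 0.19 (SE, adjusted p = 2.3e-06). Six6 measured 191, 208 and 147 CPM at ZT10 and 57.9, 36.2 and 43.2 CPM at ZT22, a difference of 1.99 ± 0.23 (SE, adjusted p = 4.5e-06). Sox2 differed by 1.96 ± 0.25 (SE, adjusted p = 1.1e-05) and Vax1 by 3.12 ± 0.62 (SE, adjusted p = 0.0009), all without overlap. Six3, Six6 and Sox2 kept their call with the trend removed, whereas Vax1 was at 0.90 (adjusted p = 0.29).

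Markers of cell types moved alongside, and their counts stand beside 14.4% of all genes higher and 12% lower. Of 14 markers of SCN neurons 9 were higher and 2 lower at ZT10, and their summed level was between 5884 and 6432 CPM at ZT10 and between 3639 and 4591 CPM at ZT22. Most are genes already described, with Avp, Grp, Nms, Prok2, Six3, Six6 and Rgs16 among the higher and Rorb and Prokr2 the 2 lower. The sum also holds Vip, which was not called. Gad2, the GABA-synthesizing enzyme GAD65, rose by 0.86 ± 0.15 (SE, adjusted p = 0.00032). Of 9 astrocyte markers none was higher and 6 were lower, also by DESeq2 and at an unadjusted p below 0.05, with a sum between 3517 and 3665 CPM at ZT10 and between 6847 and 7909 CPM at ZT22. Aldoc measured 1047, 1237 and 920.4 CPM at ZT10 and 2544, 2778 and 2622 CPM at ZT22, and Slc1a3, the glutamate transporter GLAST, 768, 685 and 761 CPM at ZT10 and 1598, 1596 and 1943 CPM at ZT22. They fell by 1.31 and 1.21 on the log2 scale (adjusted p = 0.0014 and 1.7e-05). In these bulk samples fewer cells of a type and less RNA per cell cannot be told apart.

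Of 10 oligodendrocyte markers 1 was higher and 4 were lower, with a sum between 1730 and 2141 CPM at ZT10 and between 2320 and 3155 CPM at ZT22. Of 9 microglial markers 2 were higher and 3 lower, and of 9 endothelial markers 1 was higher and 2 lower. The 8 markers of telencephalic excitatory neurons gave 0 higher and 3 lower (1 and 4 at an unadjusted p below 0.05, 1 and 3 by DESeq2), at a summed level between 130.1 and 329 CPM at ZT10 and between 161 and 373 CPM at ZT22. Neurons of neighbouring hypothalamic nuclei were represented at low level, with a sum between 20.8 and 36.5 CPM at ZT10 and between 20.6 and 59.2 CPM at ZT22 over 9 of 13 markers tested, 2 of them higher. The 3 blood markers tested and the 7 ependymal and choroid plexus markers gave no call by edgeR, by DESeq2 or at an unadjusted p below 0.05. None of the markers tested was at 0 reads in all 6 libraries. The part of tissue makeup in the gene differences was not tested.

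Of all genes 14.4% were higher and 12% lower, or 13.1% and 9.12% with the trend removed, and the counts of signalling and excitability genes that follow stand beside these shares. Of 19 RGS genes, which limit G-protein signalling, 5 were higher and 3 lower (median -0.70, but 0.19 among those with at least 10 reads in every library). Rgs4 measured 50.8, 101 and 102 CPM at ZT10 and 242, 467 and 359 CPM at ZT22, a difference of -2.08 ± 0.39 (SE, adjusted p = 0.00053), and Rgs8 was at -2.02 ± 0.32 (SE, adjusted p = 0.0001). Rgs20 was at 1.86 ± 0.31 (SE, adjusted p = 0.00018) and Rgs10 at 1.12 ± 0.21 (SE, adjusted p = 0.00056). Of 26 immediate early genes 6 were higher and 5 lower (23.1% and 19.2%, median 0.66), and with the trend removed 4 were higher and 5 lower (median 0.11). Junb measured 7.81, 5.38 and 9.11 CPM at ZT10 and 0.507, 0.22 and 0.287 CPM at ZT22 and Jund 42.9, 49.3 and 46.7 CPM at ZT10 and 10.7, 10.2 and 8.82 CPM at ZT22, both AP-1 members and both without overlap. Junb was at 4.44 (adjusted p = 2.4e-05) and, with the trend removed, at 2.75 (adjusted p = 0.0018). Jund was at 2.23 (adjusted p = 2.5e-07) and, with the trend removed, at 0.21 (adjusted p = 0.53). Klf10 was lower, at -2.66 (adjusted p = 0.00013), as was Homer1, a postsynaptic scaffold, at -1.68 (adjusted p = 0.00052).

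Of 40 genes of the cAMP and CREB pathway 6 were higher and 10 lower (15% and 25%, median -0.38), and with the trend removed 5 were higher and 8 lower (median -0.03). Crtc1, a CREB coactivator of light resetting, measured 61.6, 44.5 and 77.2 CPM at ZT10 and 4.64, 3.38 and 6.99 CPM at ZT22, a difference of 3.61 ± 0.37 (SE, adjusted p = 1e-06) that was 3.55 (adjusted p = 6.5e-08) with the trend removed. The calcium-stimulated adenylyl cyclase gene Adcy1 measured 35.8, 30.8 and 77.5 CPM at ZT10 and 89.8, 329.7 and 357 CPM at ZT22, a difference of -2.43 ± 0.42 (SE, adjusted p = 0.00026). The kinase subunit gene Prkacb was at -1.29 (adjusted p = 6.2e-05) and the phosphodiesterase gene Pde1a at -2.08 (adjusted p = 8.4e-05). Of 11 MAP kinase phosphatases 1 was higher and 2 lower, with Dusp7 at 1.10 (adjusted p = 0.0038), Dusp8 at -1.16 (adjusted p = 0.0011) and Dusp10 at -1.90 (adjusted p = 0.016). Once the trend was removed 2 phosphatase genes were called, both lower, and Dusp7 was at 0.60 (adjusted p = 0.18).

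The 8 lists of channel, receptor and synaptic genes that follow each had more members lower at ZT10 than higher, by 1 gene among calcium channels once genes of a stretch with almost no reads at ZT10 were left out, although for voltage-gated potassium channels the share lower, 16.2%, was close to the 12% of all genes. Of 19 sodium, HCN and NALCN channel genes 3 were higher and 8 lower (median -0.87). Scn8a, the sodium channel Nav1.6, measured 48.6, 52.1 and 79.9 CPM at ZT10 and 116, 195 and 199 CPM at ZT22, a difference of -1.50 ± 0.26 (SE, adjusted p = 0.00032); Scn1a was at -1.57 (adjusted p = 0.0011), Scn3b at -1.36 (adjusted p = 0.00093) and Unc79, of the NALCN complex, at -1.51 (adjusted p = 0.0013). Of 37 voltage-gated potassium channel genes 3 were higher and 6 lower (median -0.91). Kcna6 was at -1.36 (adjusted p = 0.0001), but Kcnh2 was at 2.78 (adjusted p = 0.0054) and, with the trend removed, at 1.67 (adjusted p = 0.052). Of 34 other potassium channel genes 1 was higher and 8 lower; Kcnma1, the BK channel that shapes night-time firing, was at -0.95 (adjusted p = 0.012) and, with the trend removed, at -0.30 (adjusted p = 0.46). The glial channel genes Kcnj10 and Kcnj16 were at -0.94 (adjusted p = 0.0006) and -2.37 (adjusted p = 2.4e-05), and Kcnj10 was at -0.41 (adjusted p = 0.21) with the trend removed.

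Of 26 calcium channel genes 4 were higher and 8 lower (median -0.49). Of these 8, the gamma subunit genes Cacng6, Cacng7 and Cacng8 lie in a stretch of chromosome 7 with almost no reads at ZT10, described below, and without them, a choice made after the data were seen, 4 of 23 were higher and 5 lower (median -0.24), or 3 and 2 with the trend removed (median -0.16). Cacna1g, the T-type channel Cav3.1, measured 43.7, 43.7 and 62.6 CPM at ZT10 and 10.7, 10.3 and 8.24 CPM at ZT22, a difference of 2.36 ± 0.26 (SE, adjusted p = 2.5e-06), and Cacng2 was at 0.98 (adjusted p = 0.00072). Cacng3 was lower at -1.95 (adjusted p = 0.0001), and Cacnb4 at -1.22 (adjusted p = 0.00026). Of 22 glutamate receptor genes 1 was higher and 9 lower (median -0.71). The exception was Grin1, the obligate NMDA receptor subunit, which measured 41.8, 46.9 and 71.2 CPM at ZT10 and 7.65, 6.54 and 11 CPM at ZT22. Grin2b, another NMDA receptor subunit, measured 86.2, 49.7 and 72.6 CPM at ZT10 and 268, 667 and 636 CPM at ZT22. Grin1 rose by 2.66 ± 0.26 (SE, adjusted p = 6.4e-07) and Grin2b was at -2.91 ± 0.30 (SE, adjusted p = 1.2e-06), so the subunits diverged, each without overlap. The AMPA receptor genes Gria2 and Gria3 were at -1.71 (adjusted p = 3.9e-06) and -2.57 (adjusted p = 8.5e-06).

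Of 26 genes of GABA receptors and GABA handling 4 were higher and 9 lower (median -0.13). Among receptor subunits Gabra2 was at -1.99 (adjusted p = 3.1e-05), while Gabrb1 was higher at 1.49 (adjusted p = 6.8e-05). Of 35 genes of the synaptic vesicle cycle 3 were higher and 11 lower (median -0.42). Snap25, a SNARE protein, measured 2009.8, 1859.7 and 2295 CPM at ZT10 and 4139.8, 5572 and 5250.3 CPM at ZT22, a difference of -1.28 ± 0.17 (SE, adjusted p = 1.8e-05). Nsf, the ATPase that takes SNARE complexes apart, measured 351, 292 and 334 CPM at ZT10 and 1175, 1601 and 1647 CPM at ZT22, a difference of -2.18 ± 0.22 (SE, adjusted p = 1.1e-06), and its cofactor gene Napb was at -1.63 (adjusted p = 3.4e-06). Syt5 ran the other way, with 409, 384 and 293 CPM at ZT10 and 18.5, 13.1 and 10.4 CPM at ZT22, a difference of 4.69 ± 0.31 (SE, adjusted p = 3.6e-09). Of 30 genes of neuronal adhesion and large synaptic proteins 2 were higher and 13 lower (median -0.72), with the IP3 receptor gene Itpr1 at -2.07 (adjusted p = 1e-05) and Dlg1 at -1.31 (adjusted p = 8.7e-05).

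With the trend removed the members lower at ZT10 numbered 5 of 19 sodium, HCN and NALCN, 5 of 37 voltage-gated potassium, 3 of 34 other potassium, 5 of 26 calcium channel (2 of 23 outside the chromosome 7 stretch), 5 of 22 glutamate receptor, 6 of 26 GABA, 9 of 35 vesicle and 6 of 30 adhesion genes. The shares lower, in the same order, were 26.3%, 13.5%, 8.82%, 19.2%, 22.7%, 23.1%, 25.7% and 20% against 9.12% of all genes. The other potassium channel genes were thus below the share of all genes. So were the calcium channel genes outside the chromosome 7 stretch, with 8.70% lower and 3 of 23 higher. The members higher numbered 2, 2, 1, 3, 1, 4, 4 and 0. The medians of these 8 lists stayed below 0, between -0.93 and -0.18.

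Genes of protein synthesis and respiration were more often higher than lower at ZT10. Of 83 cytosolic ribosomal protein genes 55 were higher and 2 lower, against 14.4% and 12% of all genes, with a median of 0.68. Rpl13 measured 619, 529 and 565 CPM at ZT10 and 13.7, 14.3 and 13.7 CPM at ZT22, a difference of 5.36 ± 0.26 (SE, adjusted p = 1.1e-10), and Rplp2 604, 729.8 and 559.8 CPM at ZT10 and 193, 92.5 and 82.5 CPM at ZT22, a difference of 2.36 ± 0.28 (SE, adjusted p = 5.4e-06). Neither overlapped. Rpl31 was at 2.03 (adjusted p = 8e-06) and Rps4l at 3.46 (adjusted p = 1.3e-07). With the trend removed 21 were higher and 8 lower, and the median was 0.37. These genes have many near-identical processed pseudogenes that can take their reads; 1914 processed pseudogenes of all kinds had a median log2 difference of 0.64 in the count table, with 278 higher and 60 lower, and of -0.68 from recovered reads, with 93 higher and 262 lower.

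Over all genes the shares were 14.4% higher and 12% lower, and 13.1% and 9.12% with the trend removed. Of 74 mitochondrial ribosomal protein genes 33 (44.6%) were higher and 4 (5.41%) lower (median 0.55), and 35 (47.3%) and 2 (2.7%) with the trend removed (median 0.64). Mrpl54 measured 152, 177 and 142 CPM at ZT10 and 8.91, 8.82 and 7.31 CPM at ZT22, a difference of 4.23 ± 0.17 (SE, adjusted p = 1.3e-11). Mrpl12 was at 3.47 (adjusted p = 4.8e-10), Mrpl57 at 2.31 (adjusted p = 5.8e-09) and Mrpl43 at 2.50 (adjusted p = 3.6e-08). Of 81 nuclear-encoded genes for respiratory complexes and the ATP synthase 35 (43.2%) were higher and 6 (7.41%) lower (median 0.46), and 22 (27.2%) and 14 (17.3%) with the trend removed (median 0.25), both above the shares of all genes. Cox6a1 measured 1195, 1428 and 1119 CPM at ZT10 and 42.4, 55.1 and 45.2 CPM at ZT22, Cox5b 397, 492 and 369.5 CPM at ZT10 and 19.3, 24.9 and 21.1 CPM at ZT22 and Cox8a 1092, 1345 and 1306 CPM at ZT10 and 54.1, 86.9 and 61.6 CPM at ZT22, all subunits of cytochrome c oxidase. Each was without overlap, with differences of 4.71 ± 0.21 (SE, adjusted p = 4e-11), 4.27 ± 0.21 (SE, adjusted p = 1.1e-10) and 4.21 ± 0.21 (SE, adjusted p = 1.3e-10). Atp5d was at 3.32 (adjusted p = 2.2e-08). Of 8 genes encoded in the mitochondrial genome 1, mt-Nd3, was called, at 1.75 (adjusted p = 0.0016).

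Of 81 splicing factor and hnRNP genes 35 (43.2%) were higher and 12 (14.8%) lower, against 14.4% and 12% of all genes (median 0.50), and 33 and 9 with the trend removed. Snrpf, a core snRNP protein gene, measured 54.6, 69.3 and 55.1 CPM at ZT10 and 2.36, 2.31 and 1.83 CPM at ZT22, a difference of 4.78 ± 0.24 (SE, adjusted p = 1.4e-10). Lsm1 was at 3.72 (adjusted p = 2.5e-09), Lsm4 at 4.62 (adjusted p = 1.4e-08) and Snrpa at 3.54 (adjusted p = 2.2e-07). Translation factors split into 17 higher (25.4%) and 13 lower (19.4%) of 67, and the proteasome into 8 (21.6%) and 7 (18.9%) of 37, with medians of -0.01 in both that changed sign between scalings. Eif1, which acts in start codon selection, measured 1262, 1463 and 1170.2 CPM at ZT10 and 119.6, 126 and 95.8 CPM at ZT22, a difference of 3.51 ± 0.23 (SE, adjusted p = 3.6e-09); Eif5a was at 2.21 (adjusted p = 1.5e-07), Eif4g1 at 3.15 (adjusted p = 2.1e-07), and the proteasome gene Psmb4 at 2.51 (adjusted p = 3.4e-08). Of 67 chaperone genes 17 (25.4%) were higher and 9 (13.4%) lower, the latter near the share of all genes (median 0.09), with Dnajb6 at 2.71 (adjusted p = 2.1e-07) and Dnajb9 at 2.19 (adjusted p = 7.5e-07). The cold-inducible Cirbp measured 666, 892 and 506 CPM at ZT10 and 249.9, 178 and 187 CPM at ZT22, a difference of 1.75 ± 0.25 (SE, adjusted p = 3.9e-05), without overlap.

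**Figure D5:**
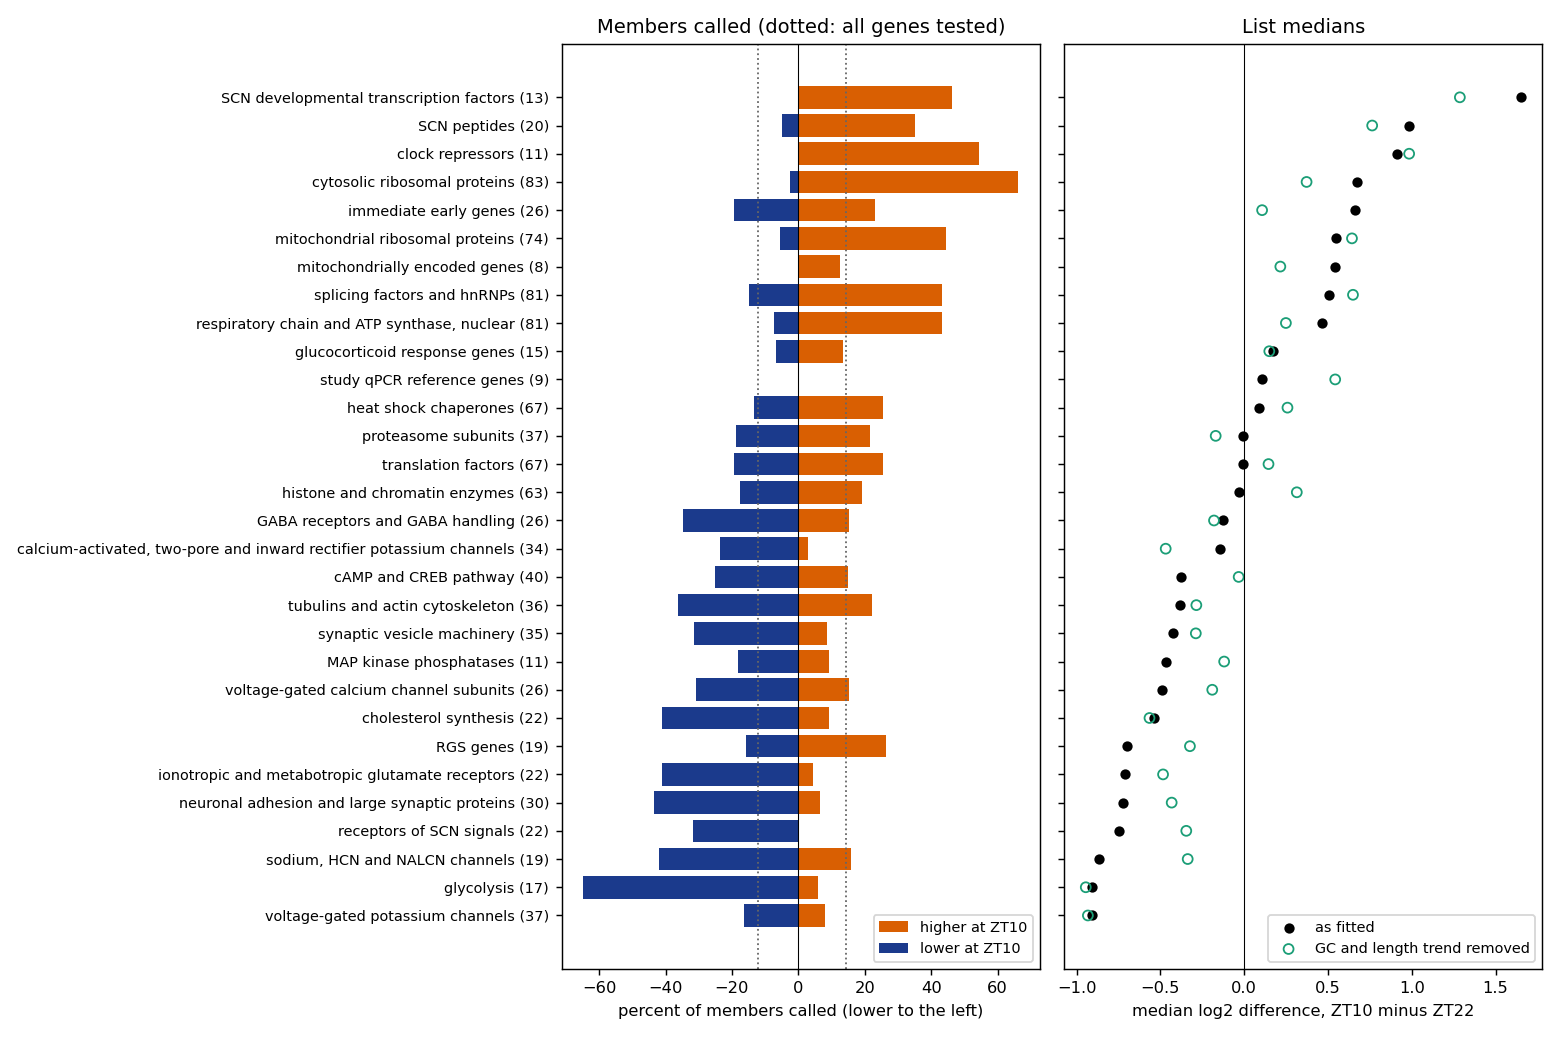
Left, percent of tested members called higher (orange) or lower (blue, drawn to the left) at ZT10 for each gene list of 8 or more genes, with the number tested in brackets and dotted lines at the values over all genes. Right, median log2 difference of each list as fitted (black) and with the GC and length trend removed (green circles): cytosolic ribosomal protein genes moved from 0.68 to 0.37 and glycolysis from -0.91 to -0.95.

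Glycolytic and cholesterol synthesis genes were more often lower than higher at ZT10. Of 17 glycolytic genes 11 were lower and 1 higher, with a median of -0.91, against 12% and 14.4% of all genes. The counts were 12 and 1 with the trend removed, against 9.12% and 13.1%. Pkm, pyruvate kinase, measured 1098, 1094 and 835 CPM at ZT10 and 3532, 3606 and 3930.5 CPM at ZT22, a difference of -1.87 ± 0.24 (SE, adjusted p = 1.2e-05). The phosphofructokinase gene Pfkp measured 101, 73.3 and 82.4 CPM at ZT10 and 422, 441 and 495 CPM at ZT22, a difference of -2.40 ± 0.25 (SE, adjusted p = 1.5e-06), and Pfkm was at -1.41 (adjusted p = 5.8e-06). Pgam1, phosphoglycerate mutase, was the member that was higher, at 2.28 (adjusted p = 8.7e-06). Of 22 genes of cholesterol synthesis 9 were lower and 2 higher (median -0.54), and 9 and 2 with the trend removed. Hmgcs1, at the entry to the pathway, measured 214, 147 and 163 CPM at ZT10 and 543, 411 and 512 CPM at ZT22, a difference of -1.48 ± 0.18 (SE, adjusted p = 6.6e-06); Dhcr7 was at -1.74 (adjusted p = 1.8e-05), Fdps at -1.76 (adjusted p = 2.8e-05) and Fdft1 at -1.41 (adjusted p = 0.00012).

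Of 36 tubulin and actin cytoskeleton genes 8 (22.2%) were higher and 13 (36.1%) lower, against 14.4% and 12% of all genes (median -0.38), with Tuba1a at -1.41 (adjusted p = 3.3e-05), Tuba8 at -2.18 (adjusted p = 4.8e-05), Pfn1 at 2.23 (adjusted p = 3.7e-05) and Arpc5l at 2.57 (adjusted p = 2e-07). Of 63 histone and chromatin enzyme genes 12 (19%) were higher and 11 (17.5%) lower, with a median of -0.03 that changed sign between scalings, and with the trend removed 15 were higher and 5 lower (median 0.31); the H4K20 methyltransferase gene Kmt5c was at 3.05 (adjusted p = 2.5e-05) and the H3K27 methyltransferase gene Ezh1 at -1.78 (adjusted p = 3.7e-05). Of 15 genes that respond to glucocorticoids 2 (13.3%) were higher and 1 (6.67%) lower, no more than the shares of all genes; Mt2, a metallothionein gene, was at 1.19 (adjusted p = 0.00034) and, with the trend removed, at 0.15 (adjusted p = 0.72), Ddit4 at 1.80 (adjusted p = 0.0076) and the mineralocorticoid receptor gene Nr3c2 at -1.80 (adjusted p = 0.0087). Removing the trend put Ddit4 at 0.99 (adjusted p = 0.15) and Nr3c2 at -1.27 (adjusted p = 0.078), and 1 gene of this list was then called, higher at ZT10. None of the 9 qPCR reference genes tested was called (median 0.11). At an unadjusted p below 0.05 and by DESeq2 1 was higher, and with the trend removed 4 were higher (median 0.54).

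By size, 3780 protein-coding genes were called from both tables in 1 direction, with at least 10 reads in each of the 6 libraries and no overlap between times. The 12 highest at ZT10 were Gm5617, Gadd45g, C1qtnf4, Flywch1, Avp, Rex1bd, Hist3h2ba, Ly6h, Id1, Rpl13, Mib2 and Ap2s1, with log2 differences from 5.16 to 7.31. Gadd45g, a growth arrest and DNA damage gene, measured 302, 389.6 and 266 CPM at ZT10 and 5.33, 2.46 and 3.3 CPM at ZT22. Ly6h measured 299.8, 219 and 386 CPM at ZT10 and 9.2, 4.41 and 5.23 CPM at ZT22, and Id1, an inhibitor of basic helix-loop-helix factors, 73.8, 67.6 and 47.3 CPM at ZT10 and 1.56, 1.47 and 1.33 CPM at ZT22. Their differences were 6.43 ± 0.42 (SE, adjusted p = 3.5e-09), 5.58 ± 0.30 (SE, adjusted p = 3e-10) and 5.43 ± 0.32 (SE, adjusted p = 1.1e-09), and in all 3 every ZT22 pool was below every ZT10 pool. Mean levels at ZT2, ZT6, ZT10 and ZT22 were 2.94, 185, 319 and 3.7 CPM for Gadd45g, and 5.42, 426, 301 and 6.28 CPM for Ly6h. Among genes with a mean of at least 200 CPM, the 5 highest were Rpl13, Chga, Cox6a1, Chchd2 and Cox5b. Chga, chromogranin A of dense-core vesicles, measured 722, 791 and 464 CPM at ZT10 and 32.9, 20.9 and 19.6 CPM at ZT22, a difference of 4.75 ± 0.37 (SE, adjusted p = 3.2e-08), and Chchd2 was at 4.57 ± 0.18 (SE, adjusted p = 7e-12).

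The 12 lowest at ZT10 were Ppp1ca, Lpl, Coro1b, Myo5b, Epha7, Lmo3, Wipf3, Plxna4, Gpr165, Chrdl1, Ankfn1 and Qrfpr, with log2 differences from -5.34 to -3.10. Lpl, lipoprotein lipase, measured 2.77, 2.52 and 1.6 CPM at ZT10 and 12.6, 82 and 50.6 CPM at ZT22, a difference of -4.39 ± 0.78 (SE, adjusted p = 0.00036). The guidance receptor gene Epha7 measured 20.9, 9.03 and 8.92 CPM at ZT10 and 61.1, 197 and 209 CPM at ZT22, a difference of -3.59 ± 0.58 (SE, adjusted p = 0.00015), and the LIM-only factor gene Lmo3 17.7, 3.47 and 13.5 CPM at ZT10 and 134, 131 and 139 CPM at ZT22, a difference of -3.55 ± 0.60 (SE, adjusted p = 0.00021). Plxna4, a semaphorin receptor gene, was at -3.31 (adjusted p = 0.00043). All ZT10 pools of these genes lay below all ZT22 pools. Replicate A was the lowest of the 3 ZT22 pools in Lpl and Epha7, and likewise in Grin2b, Nell2 and Enc1. Among genes with a mean of at least 200 CPM the 5 lowest were Grin2b, Nell2, Enc1, Pfkp and Ogdh; Ogdh, of the citric acid cycle, was at -2.30 ± 0.30 (SE, adjusted p = 1.9e-05), Nell2 was at -2.52 (adjusted p = 3e-06) and Enc1, an actin-binding protein gene, at -2.50 (adjusted p = 5.6e-05).

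Ppp1ca and Coro1b, 2 of the 3 lowest, lie in one of 3 stretches of neighbouring genes (GENCODE M21, GRCm38) that had almost no reads at ZT10. The stretch chr19:4035407-4233634, from Gstp1 to Pold4, held 14 tested genes, 12 of them lower and none higher. It had 171, 263 and 165 reads at ZT10 and 35813, 29647 and 29285 at ZT22, and its summed level was, at ZT10, 0.80% of that at ZT22. Over the day that level was 7.57 and 9.17 CPM at ZT6 and ZT10, and 1042, 1184, 1347 and 1145 CPM at ZT2, ZT14, ZT18 and ZT22. The tested neighbours outside it were at like levels at both times, with Ndufv1 at 235 CPM at ZT10 and 209 CPM at ZT22 and Ssh3 at 7.34 and 6.27 CPM.

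The stretch chr7:3109020-3435667, which holds Myadm, Cacng7, Cacng8 and Cacng6, had 15, 7 and 6 reads at ZT10 and 4107, 5213 and 4596 at ZT22 over 6 genes, all called lower. The stretch chr4:143242024-143421091, with Pdpn and Pramef8, had 2, 2 and 3 reads at ZT10 and 2182, 1715 and 2201 at ZT22 over 5 genes, all called lower. Both were also near 0 at ZT6, with summed levels of 0.697 and 0.125 CPM, and at 113 and 102 CPM at ZT2. The reads recovered from the normalized table at ZT10 numbered 11, 5 and 3 in the chromosome 7 stretch, 1, 2 and 3 in the chromosome 4 stretch and 145, 240 and 144 in the chromosome 19 stretch. All 3 stretches share the low level at ZT6 and ZT10, and whether reads there were lost in sequencing, mapping or counting was not tested.

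Genes with 0 reads in all 3 pools of one time numbered 73 called at ZT10 and 71 at ZT22. Pramef8, in the chromosome 4 stretch, had 1100, 790 and 915 reads at ZT22 and was at least 733-fold lower at ZT10, taking 3 reads over the group as the floor, a bound that covers counting error only. Iyd, iodotyrosine deiodinase, had 9, 158 and 156 reads at ZT22 and was at least 84.4-fold lower; Carns1, carnosine synthase, in the chromosome 19 stretch, had 46, 83 and 116 reads and was at least 64.0-fold lower. The 4 with 0 reads at ZT22 and the highest level at ZT10 were all annotated as processed pseudogenes, Hist1h2al, Gm5258, Gm12732 and Gm11956, at least 104-fold higher. From recovered reads Hist1h2al was at 10.32 (adjusted p = 8.8e-07), Gm12732 at 2.23 (adjusted p = 0.33) and Gm11956 at 0.00 (adjusted p = 1).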

How the data were processed

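RNA-seq libraries of mouse SCN pools were made from laser-captured tissue and amplified with the SMARTer kit. The authors aligned reads with GSNAP to mm10 (GRCm38), put the technical replicates of each library in 1 column and counted reads per gene with HTSeq 0.5.4p1 on an Ensembl annotation with added lincRNAs, and deposited these raw counts in one table. The deposited normalized table holds signal values that the authors made by dividing gene counts by DESeq2 size factors; dividing by the step of each column returned whole reads for 100.0% of values within 0.01. No column was left unused (0). Of genes, 30031 are listed with counts and 31077 with normalized values. Strand-specific counting is not stated in the sources used here, so reads of overlapping genes on opposite strands cannot be told apart.

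From the counts, edgeR 4.0.16 (R 4.3.3) fitted 1 mean for each of 6 timepoints over 18 libraries, with TMM scaling and genes that had at least 1 read in more than 6 libraries. The contrast ZT10 minus ZT22 was tested with the quasi-likelihood F-test, 2-sided, and p-values were adjusted by Benjamini-Hochberg over 18941 genes. All adjusted p-values in the text come from edgeR fits across all genes. DESeq2 1.42.0 and the other alternatives are described in the closing section. Simulated data had 200 genes changed, all drawn from genes above a minimum of expected reads, and 1 spread common to all genes. They gave 48 of 100 genes changed by 1 on the log2 scale called, 99 of 100 changed by 2, and 7 of 18741 unchanged genes.

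Named genes were the members of the clock, peptide and receptor lists, up to 4 called members with the smallest p-values and defining members of other lists, the 12 highest and 12 lowest protein-coding genes under the conditions given in the text, the 5 highest and lowest of these with a mean of at least 200 CPM, and up to 4 genes at 0 reads at either time. The members and lists were chosen with earlier results of these data known. Transcript GC content and length came from GENCODE M21 on GRCm38. Removal of their trend used a spline with 5 degrees of freedom per library. Gene symbols were matched for 97.4% of gene IDs. Some genes that the rule names are not reported here.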

Additional observations from a re-analysis of the deposited data

Results flagged for a closer look

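The normalized table lists genes that the count table does not. Of these, 2171 had enough recovered reads to be tested, and 429 differed between ZT10 and ZT22 in the edgeR fit to recovered reads (19.8%, below the 26.7% of all genes in that fit), 194 of them higher and 235 lower at ZT10. Protein-coding genes made up 226 of the 429. Ndufb2, a subunit gene of respiratory complex I, measured 485, 553 and 532 CPM at ZT10 and 29.3, 29.1 and 25.6 CPM at ZT22, a log2 difference of 4.22 ± 0.15 (SE, adjusted p = 6.9e-13). Cox14, an assembly factor gene of cytochrome c oxidase, differed by 3.16 ± 0.18 (SE, adjusted p = 2.4e-10) and Coa6, of the same function, by 4.75 ± 0.28 (SE, adjusted p = 4.2e-10). Rad9a, a DNA damage checkpoint gene at chr19:4195196-4201662, lies inside the chromosome 19 stretch that had almost no reads at ZT10. It measured 0.275, 0.0972 and 0.157 CPM at ZT10 and 42.4, 26.4 and 38.5 CPM at ZT22, a log2 difference of -7.65 ± 0.51 (SE, adjusted p = 2e-09). These genes were named after their values were seen.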

How the results depend on the processing

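The number of genes called, 5001 as reported, was 5921 with DESeq2, 5032 with DESeq2 size factors in edgeR, 5021 with upper-quartile scaling, 4980 with library totals, 4088 with scaling to qPCR reference genes, 4997 with at least 10 counts in each library, 4573 with no filter, 6705 with only the 6 libraries of ZT10 and ZT22 and 5564 from recovered reads. In alternatives chosen after the data were seen it was 4206 with the GC content and length trend removed and 4547 with protein-coding genes only. Without any 1 library it ran from 3534 to 4382, with 1947 to 2397 higher and 1587 to 1985 lower. The share of calls that were higher at ZT10 was 54.4% and ran from 49.8% to 58.9% over all these settings. The joint test of ZT10 against ZT6 and ZT22 against ZT2, with 15 genes, gave 8 to 14 without any 1 library, 9 of them without ZT10 replicate C and 8 without ZT22 replicate B, and 13 to 22 under the other settings. It was not run for DESeq2's Wald test, library totals, qPCR reference genes, the replicate block or the 6 libraries alone.

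The letters A, B and C of the libraries do not pair pools across times. Deviations of same-letter libraries from their group means correlated at 0.007, -0.031 and 0.046 across 15759 genes. With the letter as a replicate block 4909 genes were called, 4762 of them shared in direction with the 5001.

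Among the 142 called genes named in the text, 2486 of 2541 values over the alternatives kept direction and call, 54 values for 19 genes lost the call and 1 reversed: Dbp, at -0.30 with the GC and length trend removed. Leaving out 1 library ended the call of Vipr2, Npy1r, Csnk1e, Scg2, Rgs16, Fndc9, Dusp10, Kcnma1 or Iyd in at least 1 case. These were Vipr2, Npy1r, Rgs16, Iyd and Fndc9 without ZT10 replicate A, Csnk1e, Vipr2, Npy1r, Dusp10, Iyd and Fndc9 without B, and Scg2, Vipr2, Npy1r, Dusp10, Rgs16 and Iyd without C. They were Csnk1e, Vipr2 and Fndc9 without ZT22 replicate A, Csnk1e, Npy1r, Dusp10, Kcnma1, Rgs16 and Fndc9 without B, and Vipr2, Npy1r, Rgs16 and Fndc9 without C.

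Genes not called also changed sign. Cry2 was at -0.0132 with upper-quartile scaling, at -0.000322 with qPCR reference genes, at -0.0040 with no filter, at -0.0450 with the trend removed and between -0.16 and 0.25 without any 1 library. Arntl was at -0.00897 with upper-quartile scaling, -0.00237 with library totals, -0.00766 with no filter and between -0.12 and 0.25 without any 1 library. With the trend removed Npas2 was at 0.38, Tef at 0.0313, Avpr1a at 0.17 and Rcan1 at -0.0354. Without any 1 library Npas2 ran from -0.60 to 0.25, Nr1d1 from -1.32 to 0.12 and Avpr1a from -0.35 to 0.23. Of 613 list medians over the alternatives 27 moved by more than the spread, in 17 of 34 lists. The causes were not tested. The simulated data, at the depth of these libraries, had 200 genes changed and 1 spread for all genes. About 48% of the genes changed by 1 on the log2 scale were called there. That share need not hold for this contrast, and a missing call does not show an equal level.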
